A study of Homo sapiens with 8 samples.

Results

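Islands of trimethylated lysine 27 of histone H3 (H3K27me3) were compared between HT and SUDHL6. Both are long-established lymphoma lines, derived from diffuse large B cell tumours. The comparison used every island on chromosomes 1 to 22 of the H3K27me3 list of each line, which gave 16851 islands in HT and 13117 in SUDHL6. These 29968 islands belong to a series of 58757 islands in 6 lists, the others being for EZH2 and H3K4me3. Both lines were grown in the same medium without treatment and precipitated with the same H3K27me3 antibody, and each line had 1 library. The labels give no genotype, passage or clone for either line, and island lists alone did not allow a check of the lines against marker genes. With 1 library a side there was no test between the lines, the spread between replicates is unknown, and no p-value is given. Depth was unknown. Intervals are 95% and cover counting error only: exact (Clopper-Pearson) for shares, and from the ranks of the values for medians. Neighbouring islands are not independent, so these intervals are too narrow.

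H3K27me3 is written by Polycomb repressive complex 2, whose catalytic subunit is EZH2, and is read by other Polycomb proteins that hold genes silent. The mark occurs as narrow peaks around silent promoters and as broad domains over gene clusters. In germinal centre B cells, from which many of these lymphomas derive, EZH2 is abundant and the mark lies over genes of later B cell differentiation and of cell cycle arrest. The lists hold no gene names and gene positions on their build, hg19, were not used here, so regions are named by position. Positions are on hg19 and counted from 1.

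Each island carries a score given by the authors. Its meaning is unknown here, and the lines were compared only by its order within each list. Where scores of both lines are printed, they describe each list and do not compare amounts of mark. To compare islands of different width, the score was divided by the width in kb and turned into a percentile of its own list, where 0 is the lowest and 100 the highest. A percentile says where an island stands among the islands of its line and not how much mark it holds. The score per kb had a median of 20 in HT and 20.2 in SUDHL6, and 5% of islands lay above 31.1 and 29.4, so both lists had a narrow range. Islands under 1 kb stood high on this measure, with median percentiles of 87.6 in HT and 92.8 in SUDHL6 among those without an overlap, whereas islands of 2 to 5 kb had 36.6 and 38.7.

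In HT, islands that met a SUDHL6 island had a higher score per kb than the rest of the list. In SUDHL6, islands that met an HT island did not stand apart in score per kb, and in both lists overlapping islands were the wider. An island of the other line was met, by at least 1 bp, by 3585 HT islands (21.3%, 20.7 to 21.9%) and 3658 SUDHL6 islands (27.9%, 27.1 to 28.7%). The median percentile in HT was 62.8 (61.4 to 64.5) for the overlapping islands and 46.4 (45.7 to 47.2) for the others. In SUDHL6 it was 50.6 (47.4 to 51.7) and 49.7 (47.4 to 50.8). With islands of a list within 5 kb of each other joined, the overlapping islands stood 9.66 points above the others in HT and -5.80 points from them in SUDHL6. The difference between the lines in this respect was not tested for lack of replicates. The median width of overlapping and other islands was 3750 and 2250 bp in HT and 3750 and 2850 bp in SUDHL6. From islands under 1 kb to those of 10 kb or more, the share with an overlap went from 8.08% to 54.3% in HT. In SUDHL6 it went from 14.3% to 50.6%. At a limit of 1 bp a wider island has more room to meet another. How much of the width difference and of this rise comes from that was not tested.

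The share of HT islands met by SUDHL6 was 6.404% (5.29 to 7.67%) in the lowest decile (10% of the list) by score per kb. It was 19.99% (18.1 to 21.97%) in the fourth decile and 34.4% (32.2 to 36.7%) in the highest. In SUDHL6 the same shares were 24.0% (21.7 to 26.4%), 29.9% (27.5 to 32.5%) and 25.4% (23.01 to 27.9%). HT islands of low score per kb were thus seldom met by SUDHL6, while SUDHL6 islands of any rank were met about equally often.

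**Figure D1:**
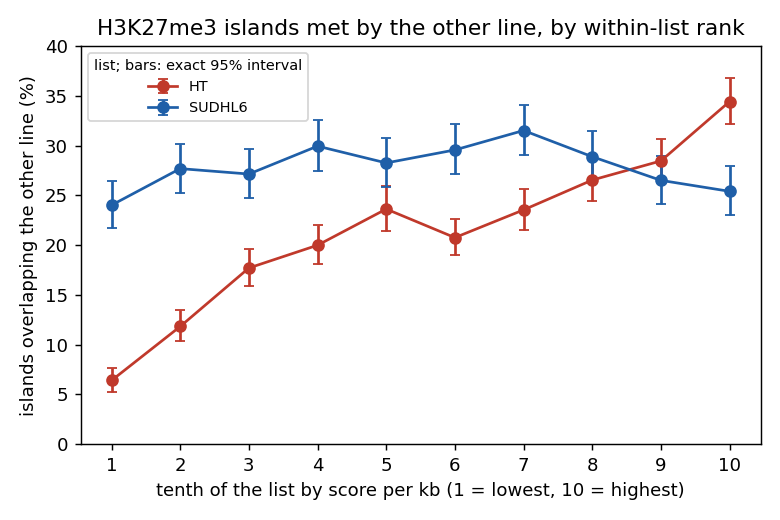
Share of autosomal H3K27me3 islands overlapping an island of the other line (percent, vertical axis) in each decile of the list by score per kb (horizontal axis), with exact 95% intervals for counting error, for HT (red) and SUDHL6 (blue). The HT share goes from 6.404% in the lowest decile to 34.4% in the highest, and the SUDHL6 share lies between 24.0% and 31.5% in every decile.

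The higher rank of overlapping HT islands was seen on each autosome and, to different degrees, in each width class. The overlapping islands of HT had the higher median percentile on 22 of 22 autosomes, with a difference from 4.17 points on chromosome 4 to 24.9 on chromosome 16. In SUDHL6 they were higher on 12 autosomes, lower on 8 and equal on 2, from -16.9 points on chromosome 13 to 14.2 on chromosome 6. This highest SUDHL6 value was close to the median of 15.4 points over chromosomes in HT, so a difference of that size was not confined to HT. Among HT islands under 1 kb the median was 90.1 for the overlapping islands and 87.6 for the others. Among those of 1 to 2 kb it was 65.5 and 50.6. Among those of 2 to 5 kb it was 56.9 and 36.6. Among those of 5 to 10 kb it was 62.8 and 48.2, and among those of 10 kb or more 88.4 and 81.02. The SUDHL6 medians in the same order of classes were 92.4 and 92.8, 55.005 in both, 42.8 and 38.7, 47.4 and 49.9, and 74.7 and 76.4. With islands ranked only against others of their width class, the medians were 64.0 and 46.5 in HT and 50.8 and 49.9 in SUDHL6. Near chromosome ends (outer 10 Mb) the HT medians were 65.5 and 48.0, and further inside they were 61.4 and 46.1. In SUDHL6 they were 55.9 and 55.0 at the ends and 47.4 and 47.4 inside. The SUDHL6 list as a whole had a median percentile of 55.4 in the outer 10 Mb. Ranking by total score instead, which follows width (rho of 0.96 with width in the SUDHL6 list), put the overlapping islands higher in both lines, by 31.98 points in HT and 16.02 in SUDHL6.

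Overlapping islands formed 3196 groups, a group being all islands linked by overlaps. In 2563 groups (80.2%) 1 HT island met 1 SUDHL6 island. In 303 groups 1 HT island met several SUDHL6 islands, in 238 several HT islands met 1 SUDHL6 island, and in 92 both lines had several. The group with the most islands lay on chromosome 10, where an HT island from 73450801 to 73519500 spanned 8 SUDHL6 islands of together 30.3 kb. Its percentile was 98.9 in HT and 37.8 in SUDHL6. The next lay on chromosome 6, where a SUDHL6 island from 37497751 to 37542450 spanned 7 HT islands of together 25.5 kb, with percentiles of 57.6 in HT and 93.98 in SUDHL6. In these groups the line with the unbroken island was the one with the higher rank.

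Edges seldom coincided. Among the one-to-one groups the starts were equal in 159 (6.20%) and the ends in 143 (5.58%), and 11 had both edges equal on the 150 bp grid of the lists. The median offset was 1200 bp at the start and 1350 bp at the end. The SUDHL6 island lay inside the HT island in 666 groups and the HT island inside the SUDHL6 island in 639. In 1247 groups (48.7%) the islands were staggered, each reaching beyond the other on 1 side. The median part of the joint length covered in both lines was 40.7%.

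Within groups, a high rank in 1 line went only weakly with a high rank in the other. For a group, the percentile of a line is that of the summed score over the summed width of its islands. Across the 3196 groups the percentiles had a Spearman rho of 0.18, given as a description since groups of 1 pair of libraries are not replicates and base composition and mappability are common to both lines. Over the 17 autosomes with at least 100 groups, rho ran from 0.06 on chromosome 11 to 0.37 on chromosome 9. From the lowest to the highest decile of SUDHL6 the median HT percentile went from 50.6 to 74.996, and from the lowest to the highest decile of HT the median SUDHL6 percentile went from 43.7 to 62.3. At or above the 90th percentile stood 519 groups in HT (16.2% of all groups) and 251 in SUDHL6 (7.85%). Of these, 66 groups passed this limit in both lines, which is 12.7% (9.97 to 15.9%) of the former and 26.3% (20.96 to 32.2%) of the latter. The 12.7% is to be read beside the 7.85% of all groups, and the 26.3% beside the 16.2%. When each list was cut to the 50% of its islands highest in score per kb, rho was 0.033 over 1199 groups, and with islands within 5 kb of each other joined it was 0.11.

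The HT percentile was the higher in 2015 groups (63.0%), with a median difference of 11.2 points (9.73 to 12.9) and quartiles of -12.1 and 34.8. Both percentiles were at or above 50 in 1115 groups. The HT percentile alone was there in 953, the SUDHL6 percentile alone in 478, and neither in 650.

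The 5 groups highest in both lines were from 1.80 to 10.4 kb wide in HT. The first, by the lower of the 2 percentiles, lay on chromosome 19 from 47742151 to 47747250 with the same edges in both lines. Its score per kb was 44.7 in HT and 43.7 in SUDHL6, and its percentile was 99.6 in both. The next was on chromosome 11, where an HT island at 826801 to 837150 lay inside a SUDHL6 island at 824251 to 838050, with percentiles of 99.8 and 98.8. The third lay on chromosome 5 from 176925001 to 176926800 in HT and 150 bp shorter in SUDHL6, with percentiles of 97.7 and 98.4.

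Groups with a high rank in HT and a low rank in SUDHL6 included several wide HT islands of chromosome 11. The largest difference was on chromosome 15, where an HT island at 60883051 to 60885750 held a SUDHL6 island at 60883351 to 60885300. There the score per kb was 37.0 in HT (percentile 98.5) and 13.8 in SUDHL6 (percentile 1.32). Of the 5 groups with the largest differences, 3 lay between 110 and 120 Mb of chromosome 11, led by an HT island of 29.7 kb from 116497951 to 116527650 (percentile 95.5) that met a SUDHL6 island of 1.95 kb (percentile 0.20). In the other direction the first group lay on chromosome 6, where an HT island at 42421501 to 42425550 (percentile 0.97) was staggered against a SUDHL6 island at 42421051 to 42423150 (percentile 93.0). The next lay on chromosome 7, where a SUDHL6 island of 8.10 kb from 2718001 to 2726100 (percentile 96.5) held an HT island of 1.80 kb (percentile 5.12).

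By chromosome, the median percentile of the groups was higher in HT on 20 autosomes and higher in SUDHL6 on chromosomes 6 and 7. On chromosome 6 the medians were 54.6 in HT and 83.3 in SUDHL6 over 187 groups, and on chromosome 7 they were 56.4 and 68.6 over 144 groups. The opposite end was chromosome 10, with 70.4 in HT and 38.1 in SUDHL6 over 161 groups. Over all islands of a list, overlapping or not, the medians were 48.3 in HT and 74.0 in SUDHL6 on chromosome 6. They were 46.9 and 63.6 on chromosome 7, and 52.9 and 41.6 on chromosome 10. The order of the lines on these chromosomes was thus not particular to the overlap groups. Without chromosomes 6 and 7 the median difference over groups was 14.1 points (12.4 to 15.6) on the same percentiles, and 12.2 points with percentiles taken anew over the other autosomes.

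**Figure D2:**
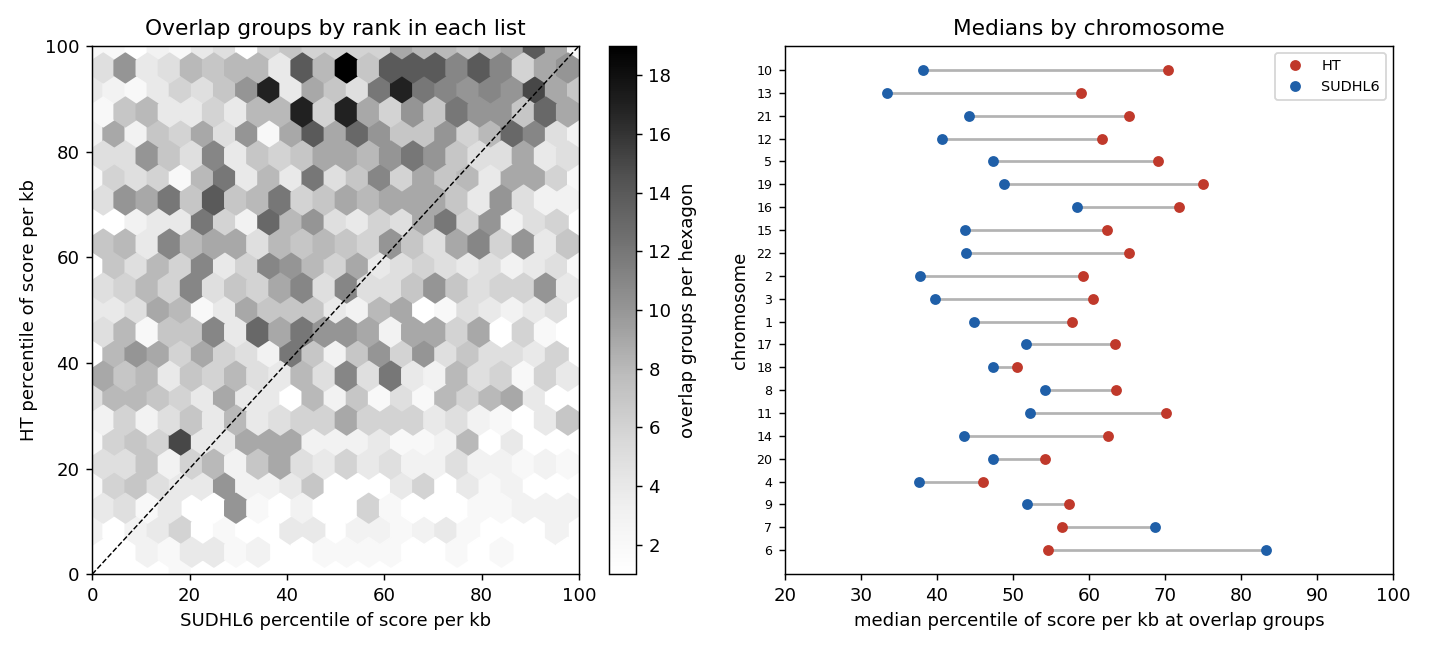
Left, the 3196 groups of overlapping islands by their percentile of score per kb in SUDHL6 (horizontal axis) and HT (vertical axis), with the number of groups per hexagon in grey and the line of equal rank dashed. Right, the median percentile of each line at these groups for each autosome, ordered by the median difference. Groups fill most of the left panel (rho of 0.18), and on the right HT (red) is the higher on every autosome except 6 and 7.

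Smaller segments stood out more than whole chromosomes. Of the 55 windows of 10 Mb with at least 20 groups, a limit chosen after the values were seen, the median percentile difference had HT higher in 46 and SUDHL6 higher in 9. Between 70 and 80 Mb of chromosome 10 the medians were 92.0 in HT and 33.3 in SUDHL6, with HT higher in 38 of 42 groups. Between 110 and 120 Mb of chromosome 11 they were 93.6 and 40.8, with HT higher in 41 of 47. The order was the reverse between 30 and 40 Mb of chromosome 6, with 61.0 in HT and 89.7 in SUDHL6 and HT higher in 8 of 70 groups. It was also the reverse between 40 and 50 Mb of chromosome 6 (45.2 and 83.2) and in the first 10 Mb of chromosome 11 (61.8 and 85.1). Chromosome 11 thus held segments of both kinds. Copy number was not measured, and its part in these segments was not tested.

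Overlapping islands were about equally wide in the lines on the whole and differed widely one by one. The median width per group was 4050 bp in HT and 4200 bp in SUDHL6. The median log2 ratio of width, HT over SUDHL6, was -0.03 (-0.08 to 0.00), with quartiles of -0.77 and 0.72. HT was the wider in 1520 groups, SUDHL6 in 1604, and 72 were equal. Widths lay within 2-fold of each other in 2031 groups (63.5%). HT was at least 4 times as wide in 154 groups and SUDHL6 in 186. Across groups the widths had a rho of 0.27, and of 0.08 over the one-to-one groups.

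**Figure D3:**
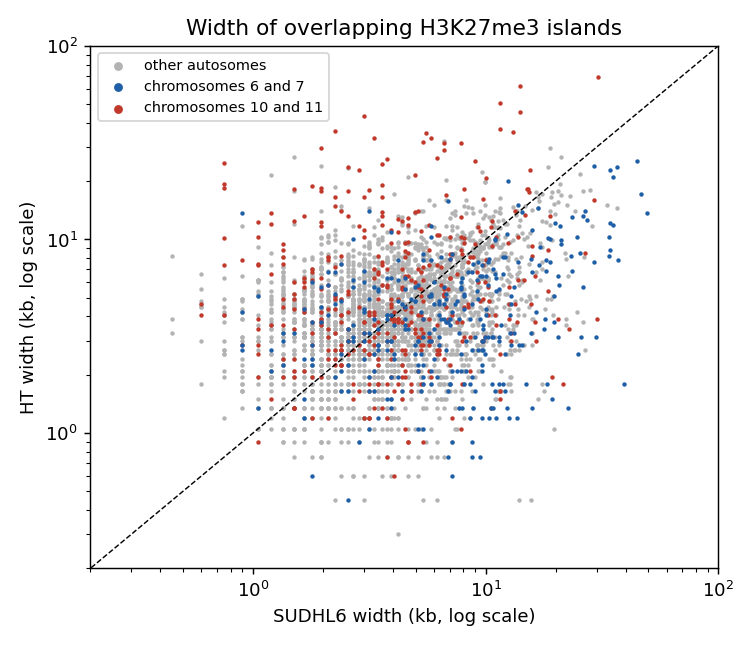
Summed island width of each overlap group in SUDHL6 (horizontal axis, kb, log scale) and HT (vertical axis, kb, log scale), with the line of equal width dashed. Groups of chromosomes 6 and 7 (blue) include the widest SUDHL6 islands and those of chromosomes 10 and 11 (red) the widest HT islands, while the median log2 ratio over all 3196 groups is -0.03.

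In some segments with large rank differences width differed the same way, and in others it did not. Between 110 and 120 Mb of chromosome 11 the median width was 16500 bp in HT and 3000 bp in SUDHL6 (median log2 ratio 2.40), and between 70 and 80 Mb of chromosome 10 it was 12075 and 4200 bp (1.44). Between 30 and 40 Mb of chromosome 6 it was 5100 and 11250 bp (-1.45). Over the 55 windows the median differences in percentile and in log2 width had a rho of 0.46, and their direction was the same in 29. Between 60 and 70 Mb of chromosome 15 the HT percentile was higher by a median of 34.1 points over 22 groups and the log2 width was -0.36. Between 40 and 50 Mb of chromosome 19 these values were 29.4 points and -0.29. Over single groups the same relation had a rho of 0.02. It differed by width: rho was -0.59 for the 211 groups with a mean width of 1 to 2 kb, -0.15 for the 1675 of 2 to 5 kb, 0.20 for the 1034 of 5 to 10 kb and 0.67 for the 274 of 10 kb or more. Most groups were thus in the middle classes, where the relation was weak. The score was divided by width, so width enters both measures. Sorting by mean width also sets the widths of the lines against each other, with a rho between them from -0.58 to -0.36 in these classes. How rank and width relate can therefore not be told from these values.

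The groups with the largest width ratios paired a broad domain in 1 line with a narrow island in the other. On chromosome 11 an HT island of 24.8 kb from 117469201 to 117493950 met a SUDHL6 island of 750 bp. Another HT island of 19.4 kb from 113122351 to 113141700 also met a SUDHL6 island of 750 bp. On chromosome 2 a SUDHL6 island of 15.6 kb from 241376101 to 241391700 met an HT island of 450 bp at its end, from 241391551 to 241392000. On chromosome 9 a SUDHL6 island of 13.95 kb from 137247001 to 137260950 held an HT island of 450 bp. In the chromosome 11 groups the broad HT islands had percentiles of 95.8 and 92.2 and their narrow partners 98.0 and 85.4. In the groups of chromosomes 2 and 9 the broad SUDHL6 islands had 62.0 and 51.9 and their narrow partners 97.96 and 96.8. The narrow partner was the higher in all of these except the second group of chromosome 11. Other groups of the same rule went both ways. A SUDHL6 island of 450 bp on chromosome 15 had 99.1 and its broad HT partner 53.9. On chromosome 12 a SUDHL6 island of 1.20 kb had 38.1 and its broad HT partner 86.8. An HT island of 1.80 kb on chromosome 6 had 64.5 and its SUDHL6 partner of 39.3 kb 94.6. Islands under 1 kb stood high in both lists in any case.

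Islands with no overlap lay farther from the other line in HT than in SUDHL6. The edge-to-edge distance to the nearest island of the other line had a median of 56.55 kb (54.3 to 59.4) over the 13266 such islands of HT and of 21.75 kb (20.9 to 22.6) over the 9459 of SUDHL6. The middle 50% lay between 12.9 and 281 kb in HT and between 6.90 and 69.4 kb in SUDHL6. Distances to a longer list tend to be shorter, and the HT list was the longer. With both lists held to the same number of islands the medians were 47.7 kb in HT and 26.9 kb in SUDHL6, so the order of the lines was the same and the gap smaller. Only the HT list was cut for this, to its 13117 islands of highest total score. The setting thus changed which HT islands were measured as well as the list length, and these were not tested apart. With only the 50% of islands highest in score per kb they were 120.6 and 36.3 kb. The HT value was the higher on 20 of 22 autosomes, including autosomes on which SUDHL6 had more islands, since HT had more on 14.

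Within 5 kb of an island of the other line lay 13.1% (12.5 to 13.7%) of the HT and 20.2% (19.4 to 21.0%) of the SUDHL6 islands without overlap. Within 50 kb lay 47.7% and 68.4%, and within 500 kb 82.6% and 96.9%. Such near misses were rarely side by side: 216 HT and 254 SUDHL6 islands were under 600 bp from the other line. At more than 1 Mb lay 1403 HT islands (10.6%) and 115 SUDHL6 islands (1.22%). At more than 5 Mb lay 358 HT islands and 1 SUDHL6 island.

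Islands of the same line were nearer. The nearest island of the same list was at a median of 10.95 kb (10.5 to 11.4) in HT and 6.60 kb (6.30 to 6.90) in SUDHL6. In 21.9% of HT and 31.6% of SUDHL6 islands without overlap, an island of the other line was nearer than any of the same line. The smallest gap within a list was 600 bp, and no such limit holds between lists.

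**Figure D4:**
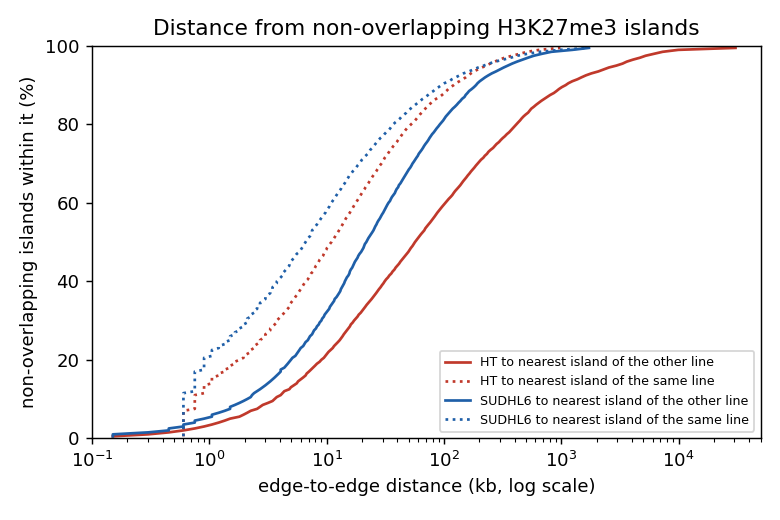
Cumulative share of non-overlapping H3K27me3 islands (percent, vertical axis) by edge-to-edge distance (kb, log scale) to the nearest island of the other line (solid) and of the same line (dotted). The solid HT curve (red) reaches 50% at 56.55 kb and the solid SUDHL6 curve (blue) at 21.75 kb, and both dotted curves lie to the left of the solid ones over most of their length.

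Rank was highest within 5 kb of the other line in both lists, and without regard to width it did not follow distance step by step. In HT the median percentile was 50.6 within 5 kb, 47.2 from 5 to 50 kb, 43.9 from 50 to 500 kb and 45.2 at over 500 kb. In SUDHL6 it was 51.7, 47.4 and 50.3 in the first 3 of these classes and 33.9 for the 295 islands at over 500 kb. With islands ranked only against others of their width class, the medians in the same order were 51.6, 48.7, 43.4 and 42.7 in HT. In SUDHL6 they were 52.0, 50.1, 49.9 and 29.9. These medians fell at each step in both lists, by little at some steps. The median width in the nearest and the farthest class was 2550 and 2100 bp in HT and 2850 and 2400 bp in SUDHL6. High-ranking islands far from the other line did occur. Among islands of 2 kb or wider at over 500 kb, a choice made after the values were seen, the highest in HT lay on chromosome 6 from 97284451 to 97286550 (percentile 99.7), at 1.997 Mb. The highest in SUDHL6 lay on chromosome 4 from 9359701 to 9370650 (percentile 98.2), at 1.15 Mb.

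The order of the lines depended on position along the chromosome. In the outer 10 Mb the median distance was 25.95 kb for HT and 30.15 kb for SUDHL6, and further inside it was 66.8 kb and 16.5 kb, so the order of the lines turned at the ends. An overlap was present for 33.7% of HT and 20.7% of SUDHL6 islands at the ends, and for 18.4% and 32.9% inside. The longer list turned as well: the outer 10 Mb held 3187 HT and 5361 SUDHL6 islands, and the inside 13664 and 7756. The lists were not held to equal numbers by zone, so the part of list length in these distances and overlaps was not tested. Of the SUDHL6 islands at over 50 and up to 500 kb from HT, 54.2% lay in the outer 10 Mb, against 14.3% of the HT islands in this class. Among islands without overlap within 5 kb of the other line, these shares were 34.8% and 24.7%. The whole lists differed in the same direction, with 5361 of 13117 SUDHL6 islands and 3187 of 16851 HT islands in the outer 10 Mb.

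The islands farthest from the other line came from a few stretches without any island of that line. The 5 farthest HT islands all lay on chromosome 4, led by one from 95309551 to 95311800 at 47.6 Mb from the nearest SUDHL6 island. The SUDHL6 list had no island from 47702851 to 146655600 of chromosome 4, a stretch of 98.95 Mb in which HT had 155 islands over 339.6 kb, 56.4% of its islands on that chromosome. These had a median percentile of 47.9 and a median width of 1950 bp. The farthest SUDHL6 island lay on chromosome 8 from 111074101 to 111075150, at 5.60 Mb from HT. A stretch without islands may still carry the mark below what the calling detected.

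Other long stretches held HT islands alone. On chromosome 8 HT had 84 islands from 11435551 to 21883350 and 106 from 22597801 to 37552800, with no SUDHL6 island within either stretch. On chromosome 5 it had 58 islands from 68787301 to 75972000. Stretches of at least 5 Mb free of the other line held 1903 HT islands (14.3% of those without overlap) on 20 autosomes and 214 SUDHL6 islands (2.26%) on 15.

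Non-overlapping islands came in long, sparse runs in HT and in short, dense runs in SUDHL6. A run is a row of islands of 1 line with no island of the other between them. Runs of 10 or more held 36.7% of the HT islands without overlap and 18.7% of those of SUDHL6, and runs of 20 or more held 19.3% and 8.28%. Single islands made up 13.1% and 23.3%. With the same number of islands in both lists the shares in runs of 10 or more were 27.02% and 22.4%, a smaller gap. With islands within 5 kb joined they were 32.8% and 10.7%. Over 10 Mb from chromosome ends they were 39.7% and 7.74%. The 77 HT runs of 20 or more spanned a median of 2.87 Mb at 9.80 islands per Mb, and the 27 of SUDHL6 spanned 0.715 Mb at 38.8 islands per Mb.

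Most of the leading SUDHL6 runs were compact. On chromosome 4, 69 SUDHL6 islands lay from 6430201 to 8192100, over 238.95 kb of their own length, with no HT island between them. On chromosome 22, 44 lay from 48572851 to 49248000, with a median percentile of 61.96 and a median width of 3525 bp. On chromosome 10, 36 lay from 134369251 to 135084300. A sparse one was on chromosome 12, where 33 islands spanned 5.66 Mb from 126298051 to 131955000.

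**Figure D5:**
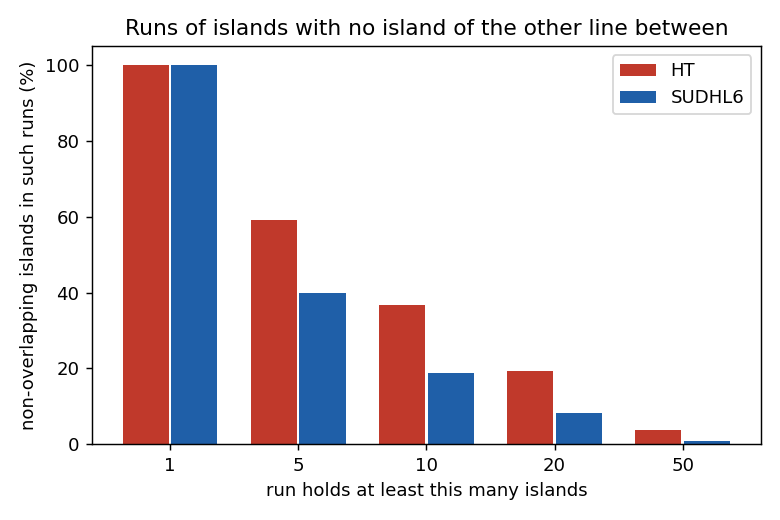
Share of the non-overlapping islands of each list (percent, vertical axis, bars from 0) that lie in runs of at least 1, 5, 10, 20 or 50 islands (horizontal axis) with no island of the other line between them, for HT (red) and SUDHL6 (blue). At 10 or more the shares are 36.7% in HT and 18.7% in SUDHL6, and at 20 or more they are 19.3% and 8.28%.

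Islands of a list were also chained where the gap between neighbours was 50 kb or less, whatever the other line held. HT had 6061 chains and SUDHL6 3903, of which 51.7% and 50.3% were single islands. Chains of 10 or more held 26.5% of HT and 38.5% of SUDHL6 islands. The largest HT chain had 50 islands from 169651051 to 170198100 of chromosome 5, of which 2 met SUDHL6. The largest SUDHL6 chain had 96 islands from 137513251 to 138684300 of chromosome 9, of which 14 met HT. A chain thus could be dense in 1 line and nearly free of the other.

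In HT, islands of larger chains met the other line more often. The share was 13.1% (11.9 to 14.3%) for single islands and 30.5% (28.4 to 32.8%) in chains of 20 or more. In SUDHL6 it was 21.2% (19.5 to 23.1%) for single islands, 32.1% (30.4 to 33.8%) in chains of 10 to 19 and 26.0% (24.1 to 27.9%) in chains of 20 or more, 70.4% of which were in the outer 10 Mb. Of the islands without overlap, 36.1% (35.3 to 36.9%) in HT and 55.4% (54.3 to 56.4%) in SUDHL6 shared a chain with an overlapping island of their line. Chains at gaps of 20 kb gave 21.6% and 37.9%. Non-overlapping islands thus lay beside overlapping ones more often in SUDHL6 than in HT, a difference not tested for lack of replicates.

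Chains without any overlapping island were mostly small. A small chain has fewer islands that could meet the other line, so this was in part set by the definition. Among chains of 5 or more islands, those without an overlap were 292 of 903 in HT (32.3%) and 152 of 751 in SUDHL6 (20.2%). The largest in HT had 27 islands from 208060351 to 208419450 of chromosome 1, with a median percentile of 28.4 and 3 SUDHL6 islands lying between its islands. In SUDHL6 the first by number had 24 islands from 10357501 to 10659600 of chromosome 2, with 1 HT island between them. Another of 24 islands lay from 3600151 to 3897450 of chromosome 4, covered 105.9 kb, had a median percentile of 55.3 and held no HT island.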

How the data were processed

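H3K27me3 ChIP-seq lists of HT and SUDHL6 were used, 1 library each. Per the submitters' processing notes SICER and hg19 were used. Window (150 bp), gap (450 bp) and FDR (1E-7) are read from the names of the deposited lists, and each list belongs to 1 library. The deposited score per island is a whole number of unknown meaning, as are its scaling, the control and the read depth, and wide islands have more of it. Island edges lay on a grid of 150 bp, ends included. Islands were compared by overlap of 1 bp or more, linked into groups and chained at gaps of 50 kb, with chromosome ends taken as the outermost islands. Regions named in the text are the leading ones of a rule: the 5 groups with the highest lower percentile, the 5 with the largest difference in percentile and in width (wider side at least 5 kb) each way, the 5 farthest islands, and the 5 largest chains without overlap. Groups with the most islands, the largest chains, runs and windows were named after their values were seen. Members and measures were chosen with earlier results of these data known. The overlap, distance and chain steps were tested on simulated data and gave 100% right answers. The simulated lists held only one-to-one overlaps, so the linking of several islands into a group was not checked. Distances were checked for a part of the HT islands, and the chain check used the same gap rule as the step itself. Python 3.11.15, numpy 2.4.6, pandas 2.3.3, scipy 1.17.1 and matplotlib 3.10.9 were used. Input, EZH2 and H3K4me3 samples were not analysed here beyond the number of islands. Planned gene lists were not used here for want of matching gene coordinates.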

Additional observations from a re-analysis of the deposited data

How the results depend on the processing

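No paired analysis was possible because each line had 1 library. Values are given as HT and SUDHL6. Of 109 recomputed values 50 stayed within the counting interval of the reported one and 59 left it. Without replicates, how far a second library would move them is unknown, and depth limits every statement on missing islands. The cause of the moves was not tested.

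With the 50% of islands highest in score per kb, the overlap shares were 15.1 and 20.3%, rho of ranks was 0.033, median distances were 120.6 and 36.3 kb, shares in chains with an overlapping island were 19.9 and 40.4%, and the HT share in runs of 10 or more was 39.6%. With equal numbers of islands the values were 25.2 and 26.3% for overlap, 18.8 points for the HT rank difference between overlapping and other islands, 0.015 for log2 width, 47.7 and 26.9 kb, 37.8 and 54.2% in chains, and 27.02 and 22.4% in runs. With islands within 5 kb joined they were 22.3 and 31.2% for overlap, 9.66 and -5.80 points for the rank differences, 8.69 points between the lines, a rho of 0.11, -0.093 for log2 width, 75.75 and 27.15 kb, 28.9 and 44.01% in chains, and 32.8 and 10.7% in runs. Over 10 Mb from chromosome ends they were 18.4 and 32.9% for overlap, 0.061 for log2 width, 66.8 and 16.5 kb, 50.2% of SUDHL6 in chains, and 39.7 and 7.74% in runs. With an overlap of 50% of the narrower island they were 18.5 and 23.8% and 51.45 and 19.2 kb. Islands of at least 1 kb had an HT rank difference of 20.2 points. Ranked by total score, the rank differences were 31.98 and 16.02 points, that between the lines 7.16 points and rho 0.28. Chain gaps of 20 kb gave 21.6 and 37.9% and of 100 kb 48.3 and 68.9%.

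As additions after the data were seen, chromosomes 6 and 7 were left out, with a log2 width of 0.037, and chromosomes 4 and 8 were left out, with distances of 51.75 and 20.55 kb, 37.6 and 56.5% in chains and 34.99 and 16.7% in runs. In every one of these settings for which distances were computed, HT islands lay farther from SUDHL6 than the reverse. The HT rank difference was above 0 in each of its settings.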
